A study of Homo sapiens with 10 samples.

Results

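The 9 genes described here, of 34567 in the expression table, belong to antigen processing and presentation and were chosen by name. HLA-B, HLA-C and HLA-E encode class I heavy chains, B2M the light chain of class I, TAP1 and TAP2 the peptide transporter, PSMB9 a catalytic subunit of the immunoproteasome, CD74 the class II invariant chain and HLA-DRA the class II alpha chain. RNA-seq was carried out in 10 libraries of human glioma cell lines. SNB19 cells received scrambled siRNA (NC, n = 3) or MEOX2 siRNA (siMEOX2, n = 3) with Lipofectamine, and U87 cells received empty vector lentivirus (EV, n = 2) or MEOX2 overexpression lentivirus (OE, n = 2) with polybrene. The paper's methods describe puromycin selection of its stable lentiviral lines, and transient transfection for siRNA. Both lines were grown in DMEM with serum and no interferon treatment is named in the labels. The 3 siMEOX2 libraries share a single code in their titles, the sources used here do not say which of the study's MEOX2 siRNAs it was, and effects of that siRNA on other transcripts cannot be told apart from those of lower MEOX2. The promoter that drives MEOX2 in the lentivirus is not given in the labels, and neither is whether libraries of a group came from separate cultures, so p-values measure the spread between these libraries, which may be technical.

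Class I molecules show peptides from inside the cell to CD8 T cells. The proteasome, or the immunoproteasome in its place, cuts proteins into peptides, TAP1 with TAP2 pumps the peptides into the endoplasmic reticulum, and there they are fitted onto a heavy chain paired with B2M. Class II molecules show peptides taken up from outside, and CD74 occupies their groove until lysosomal proteases, among them cathepsin S (CTSS), trim it away. NLRC5 is the transactivator of class I genes and CIITA that of class II genes. Both act through promoter elements bound by the RFX complex, CREB family factors at the X2 box and NF-Y at the Y box, and interferon gamma acts on many of the same genes through factors such as IRF1.

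The promoters of 7 of the 9 members were present among the RefSeq windows used (GRCh38.p14, 250 bases before to 50 after the start), and HLA-E and HLA-DRA had no entry. The stretches of 3 class I genes, whose heavy and light chains moved together in the knockdown below, and of CD74, which moved the other way, are shown from 195 to 31 bases before the start, 5′ to 3′ on the gene's strand. Capitals mark the X2 box core TGACG, the Y box core CCAAT, the core of the interferon-stimulated response element (ISRE; GAAA, any 2 bases, GAAA) and the NF-kB site, each searched on both strands.
HLA-B (chr6:31357210-31357374, minus strand): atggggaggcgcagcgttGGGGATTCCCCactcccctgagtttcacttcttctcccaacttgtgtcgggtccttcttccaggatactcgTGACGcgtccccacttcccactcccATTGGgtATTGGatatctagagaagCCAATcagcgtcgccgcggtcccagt
HLA-C (chr6:31272123-31272287, minus strand): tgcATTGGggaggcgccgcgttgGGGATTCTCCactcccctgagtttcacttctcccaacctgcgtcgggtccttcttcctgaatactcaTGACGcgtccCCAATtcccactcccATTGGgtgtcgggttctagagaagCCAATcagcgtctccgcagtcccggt
B2M (chr15:44711322-44711486, plus strand): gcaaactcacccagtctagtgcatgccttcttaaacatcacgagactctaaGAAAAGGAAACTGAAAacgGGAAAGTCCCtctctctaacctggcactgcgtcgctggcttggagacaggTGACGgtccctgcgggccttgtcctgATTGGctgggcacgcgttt
CD74 (chr5:150412941-150413105, minus strand): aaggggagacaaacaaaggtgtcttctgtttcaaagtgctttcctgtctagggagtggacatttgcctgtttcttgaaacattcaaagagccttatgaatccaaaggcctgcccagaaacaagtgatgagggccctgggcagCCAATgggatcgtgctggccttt
HLA-B and HLA-C carried an X2 core at -106 and -105, with a Y core at -56 in both, and their whole windows were identical at 88.5% of 304 aligned positions. B2M carried an X2 core at -75 and a Y core at -49, behind overlapping ISRE cores that began at -144 and an NF-kB site at -125. CD74 had a Y core at -53 and no X2 core with these letters. No match of one motif overlapped a match of another.

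The X2 core was found in 5 of the 7 members with a window (HLA-B, HLA-C, B2M, TAP2 and PSMB9), against 24.6% of all 35116 promoter windows, and the Y core in 6 of 7 against 34.6%. The ISRE core was found in 3 of 7 (B2M, TAP1, TAP2) against 3.57%, and the NF-kB site in 5 of 7 against 11.3%. The gamma-activated site TTCNNNGAA was matched in TAP1 alone (7.66% of all windows). The homeodomain core TAATTA, a sequence common to many homeodomain proteins, the class to which MEOX2 belongs, was in none of the 7, against 4.84% of all windows. TAP1 and PSMB9 are transcribed in opposite directions from starts 488 bases apart, and the upstream window of TAP1 shared 13 bases with that of PSMB9. A match is a description of letters, and binding was not measured here.

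**Figure D1:**
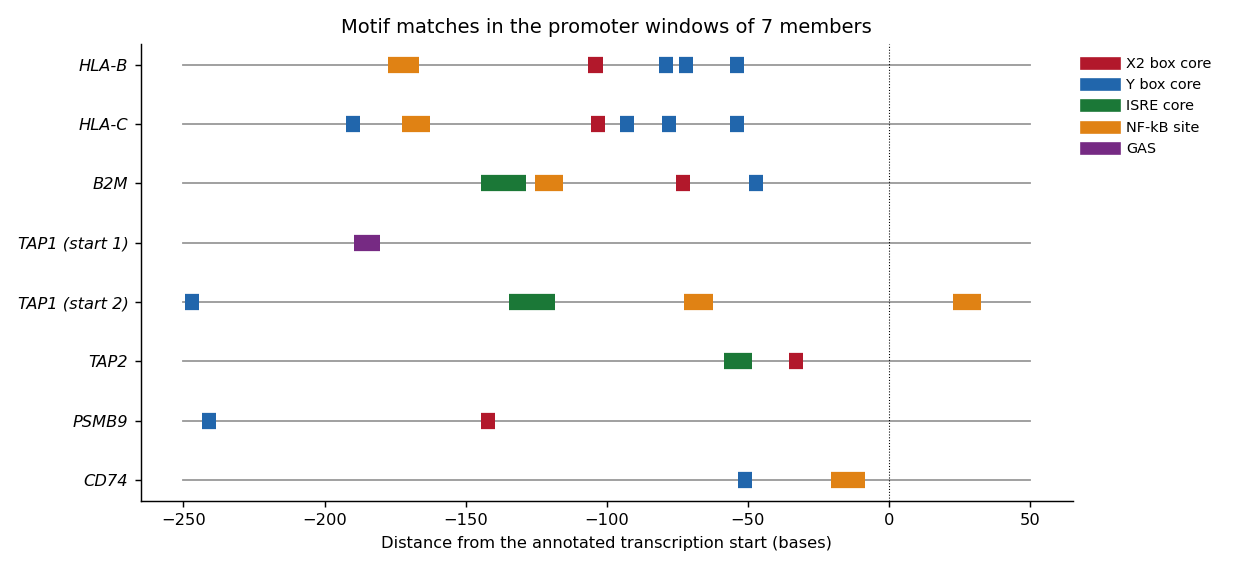
Matches of 5 motifs in the promoter windows of 7 members, drawn by distance in bases from the annotated start, with coloured blocks for matches on either strand. HLA-B, HLA-C and B2M each show an X2 core with a Y core nearer the start, and CD74 shows a Y core at -53 without an X2 core.

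Library totals ran from 12533775 to 16560324 reads in genes. MEOX2 itself was at 14.4, 15.5 and 16.7 CPM (read counts scaled to a common library size with TMM factors) in NC and at 3.13, 2.47 and 3.07 in siMEOX2. It had 0 reads in both EV libraries and 4999 and 5308 reads in the OE libraries. The first EV library stood apart from the other 9. Its ribosomal protein genes took 12.98% of reads, against 4.041% to 6.679% elsewhere, and its scaling factor was 0.695, against 0.95 to 1.13. Relative to the second EV library, genes in the short tertile of length had a median log2 ratio of 0.74 and those in the long tertile of -0.57. Many log2 fold changes of the members that rest on the EV libraries are therefore also given with each EV library left out, as are those of several other genes that moved with it. The part of these differences in the results was not tested. Of 7 immune cell markers, CD3E and MS4A1 were not among the genes counted, and the other 5 summed to 0.332 to 4.37 CPM in every library, with PTPRC, CD68 and AIF1 below the count filter throughout. Of the glioma line markers, VIM, NES, GFAP and CD44 were tested in both lines and S100B was below the filter.

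Per length, B2M had the highest mean of the 9 members in every group. In NC it stood at 219 ± 1.99 FPKM, the fragment level scaled by length and depth (SD, n = 3), followed by HLA-C at 81.5 ± 1.97, HLA-B at 58.1 ± 1.59 and HLA-E at 48.7 ± 2.21. TAP1 (18.0 ± 1.00), PSMB9 (7.53 ± 0.374) and TAP2 (4.34 ± 0.0664) came next, and CD74 (0.463 ± 0.0953) and HLA-DRA (0.0503 ± 0.0872) were last. No neighbours in this order overlapped in NC. In siMEOX2, HLA-B (33.5 ± 0.771 FPKM) stood below HLA-E (48.0 ± 0.395 FPKM), and PSMB9 and TAP2 overlapped. In EV, CD74 was the fifth member at 12.3 ± 0.685 FPKM (n = 2). The EV ranges of B2M and HLA-B overlapped, as did those of HLA-C and HLA-E, and each neighbouring pair from CD74 down to HLA-DRA. In OE, HLA-E (83.5 ± 2.96 FPKM) was second to B2M (96.9 ± 5.42 FPKM), CD74 was eighth at 1.49 ± 0.262 FPKM, and no neighbours overlapped.

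**Figure D2:**
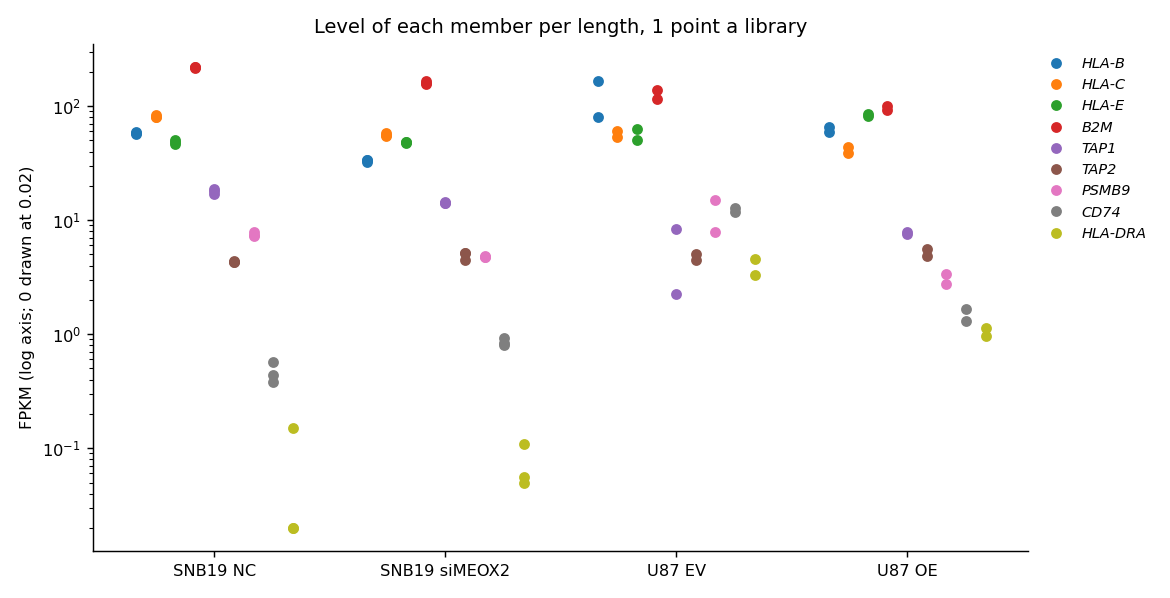
FPKM of each member on a log axis, with 1 point for each library and a value of 0 drawn at 0.02. B2M has the highest mean in all 4 groups, although HLA-B lies above it in the first EV library (166.5 and 140 FPKM). HLA-DRA is far lower in SNB19 than in U87. CD74 is far lower in SNB19 than in EV but nearer to OE, with means of 0.8535 FPKM in siMEOX2 and 1.494 FPKM in OE.

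In SNB19 cells, mRNA of the class I genes HLA-B, HLA-C and B2M was lower in siMEOX2 than in NC, while HLA-E did not pass the test. Of the 8 members that passed the count filter, 5 fell (HLA-B, HLA-C, B2M, TAP1 and PSMB9), 1 rose (CD74) and HLA-E and TAP2 did not pass the test (edgeR quasi-likelihood test, adjusted p under 0.05 over all genes). The knockdown changed a large part of all genes: 55.9% of the 15525 genes tested were called, 28.5% lower and 27.4% higher. The median log2 fold change of the 8 members was -0.47, against 0.00626 over all genes tested. Groups did not overlap for 5 members with lower and 1 with higher siMEOX2 values, and for 31.7% and 29.4% of all genes tested. In the joint fit of all 10 libraries, which shares its spread with the EV libraries, only HLA-C was called (15.7% of genes), and none passed the study's fold rule, an unadjusted p under 0.05 with an absolute log2 fold change over 1 (10.8% of genes). In bulk RNA, fewer cells that carry a transcript and less of it per cell cannot be told apart.

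HLA-B, a classical class I chain, was at 169, 174 and 163 CPM in NC and at 90.6, 91.4 and 91.7 CPM in siMEOX2. All siMEOX2 values lay below all NC values, 1.83-fold lower on average (log2 fold change -0.87 ± 0.05 SE, edgeR adjusted p = 1.77e-11). HLA-C, the other classical chain in the set, was at 191, 199 and 191 CPM in NC and at 127, 131 and 121 CPM in siMEOX2. The groups did not overlap, and HLA-C fell by 0.61 on the log2 scale (SE 0.05, edgeR adjusted p = 3.96e-09). B2M, the light chain shared by all class I molecules of this kind, was at 1279, 1253 and 1263 CPM in NC and 925, 861 and 833 CPM in siMEOX2. It was 1.44-fold lower without overlap (log2 fold change -0.52 ± 0.05 SE, edgeR adjusted p = 5.4e-09).

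HLA-E, the non-classical chain read by NKG2 receptors of natural killer cells, was at 145, 138 and 130 CPM in NC and at 131, 127 and 125 CPM in siMEOX2. Its groups overlapped, with a log2 fold change of -0.10 ± 0.05 (SE, edgeR adjusted p = 0.132). Reads of HLA-B and HLA-C can be assigned to the wrong gene because class I genes are near copies and each line carries its own alleles.

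**Figure D3:**
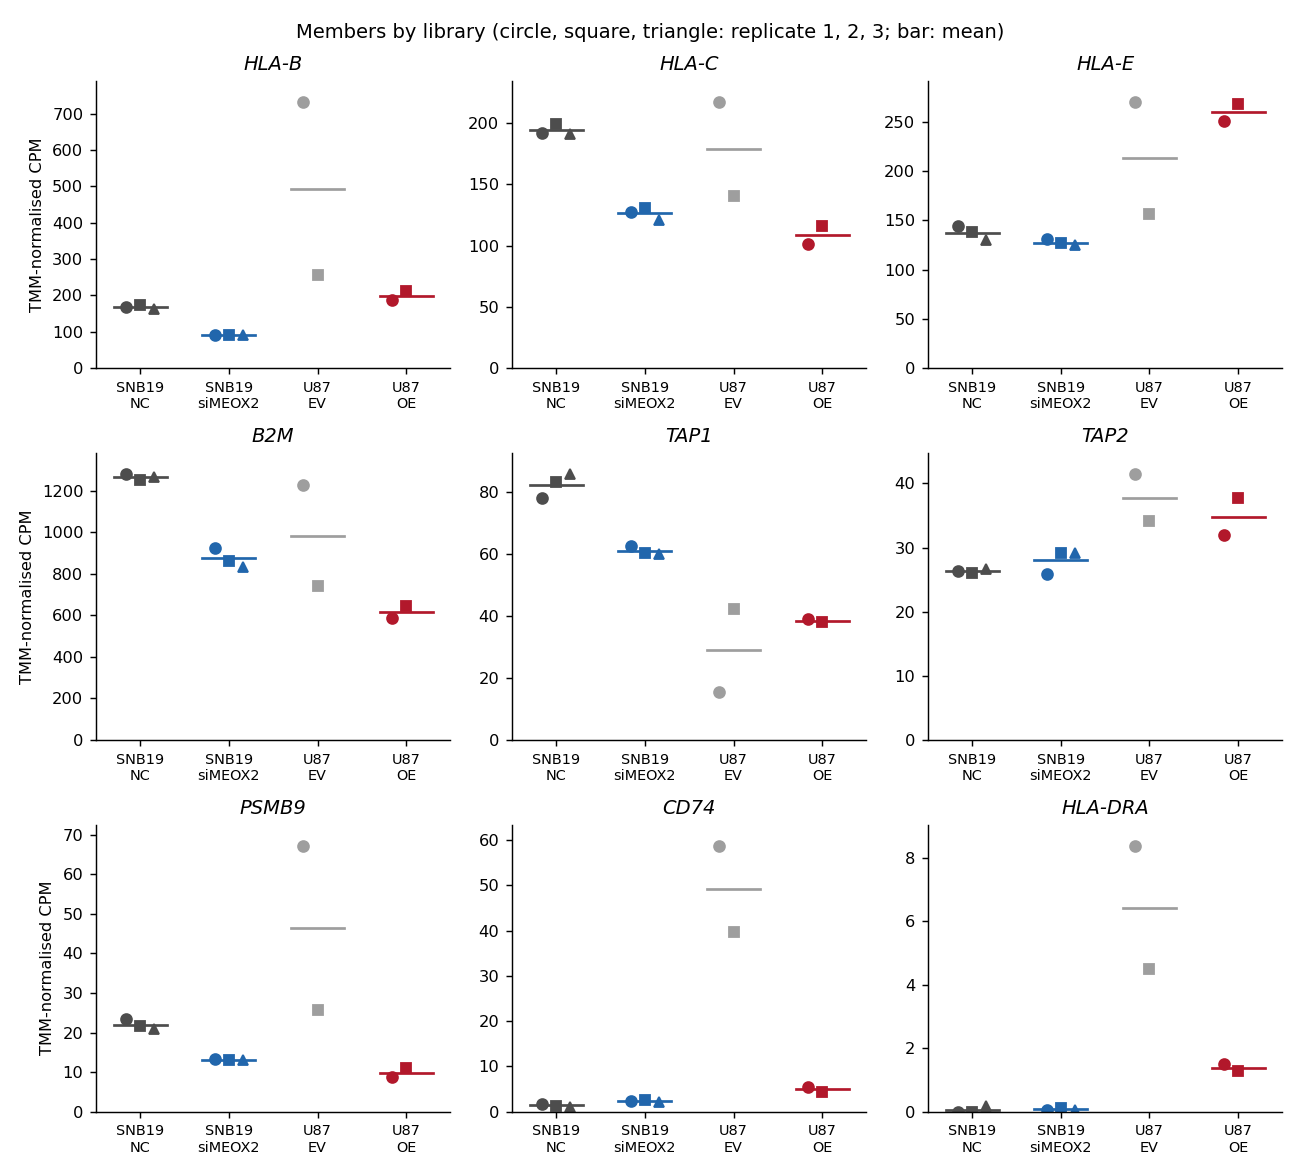
TMM-normalised CPM of each member in all 10 libraries, with a point for each library and a bar at the group mean; each axis starts at 0. The siMEOX2 points of HLA-B, HLA-C, B2M, TAP1 and PSMB9 lie below all NC points, and the EV libraries lie far apart for several members.

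The transporter subunits differed from each other. TAP1 was at 78.0, 83.2 and 85.7 CPM in NC and at 62.6, 60.4 and 60.0 CPM in siMEOX2. The groups did not overlap, and TAP1 was 1.34-fold lower (log2 fold change -0.42 ± 0.06 SE, edgeR adjusted p = 6.6e-06). TAP2 was at 26.4, 26.1 and 26.6 CPM in NC and at 25.9, 29.2 and 29.2 CPM in siMEOX2, where the groups overlapped (log2 fold change 0.10 ± 0.08 SE, edgeR adjusted p = 0.286). PSMB9, the immunoproteasome subunit that replaces a constitutive catalytic subunit, was at 23.3, 21.7 and 20.9 CPM in NC and at 13.3, 13.0 and 13.0 CPM in siMEOX2. All 3 siMEOX2 libraries lay below NC, 1.66-fold lower on average (log2 fold change -0.73 ± 0.09 SE, edgeR adjusted p = 1.14e-06).

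Class II genes were close to the detection limit in SNB19. CD74 was at 1.73, 1.32 and 1.15 CPM in NC and at 2.44, 2.59 and 2.26 CPM in siMEOX2. The siMEOX2 libraries lay above NC, with a log2 fold change of 0.80 ± 0.26 (SE, edgeR adjusted p = 0.0137), and the call was lost when the third NC library was left out (log2 fold change 0.67, edgeR adjusted p = 0.0632). HLA-DRA had 0, 0 and 3 reads in NC and 1, 2 and 1 reads in siMEOX2, and a change was not detectable at this depth, where 3 reads correspond to 0.173 to 0.208 CPM. CTSS, the protease that trims CD74, was at 28.6, 23.9 and 28.3 CPM in NC and at 5.51, 5.30 and 4.39 CPM in siMEOX2. It fell by 2.40 on the log2 scale (SE 0.12, edgeR adjusted p = 8.78e-13), a larger log2 change than that of any of the 8 members tested.

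**Figure D4:**
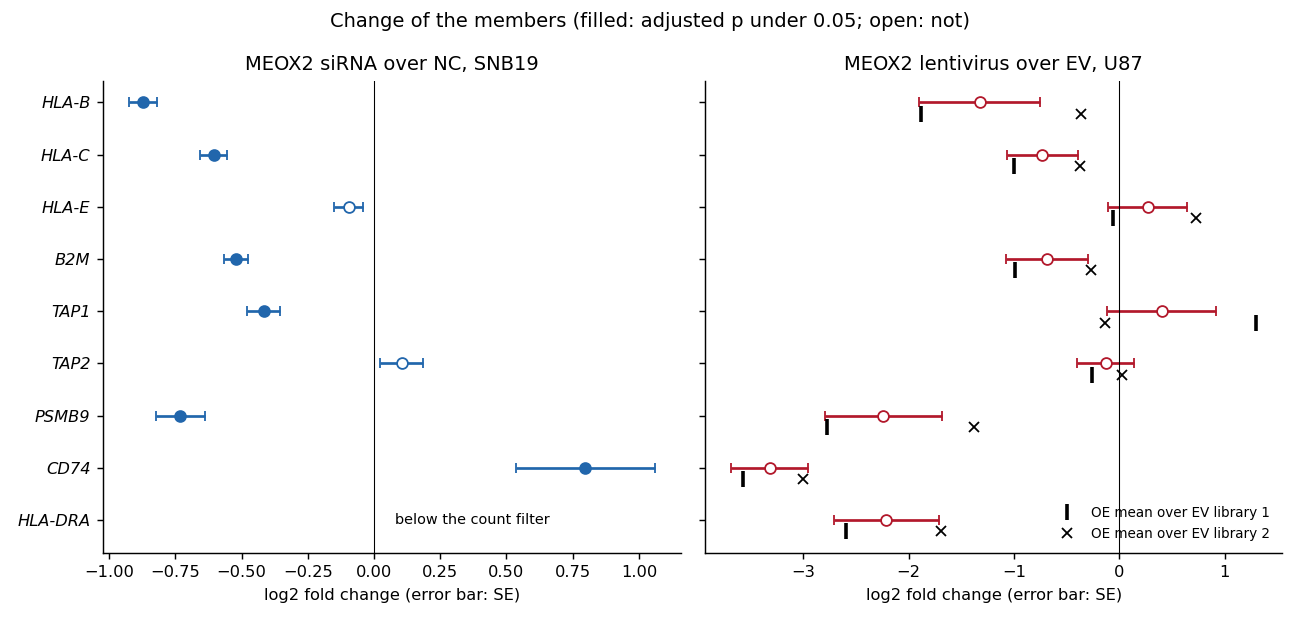
Log2 fold changes of the members with their standard errors, for MEOX2 siRNA in SNB19 on the left and MEOX2 lentivirus in U87 on the right. Filled points passed the test and open points did not, and the black marks show the OE mean over each EV library, which lie on opposite sides of 0 for HLA-E, TAP1 and TAP2.

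Other genes of the pathway were examined in 7 lists, of 64 genes in all. The list counts stand beside 28.5% lower and 27.4% higher of all genes tested in the knockdown. Among other class I chains, 2 of 4 tested rose and 1 fell. The stress ligand genes MICB (log2 fold change 0.74 ± 0.22 SE) and MICA (0.22 ± 0.07 SE) rose, while MR1, which presents vitamin B metabolites, fell by 0.62. Peptide loading genes fell in 5 of 7 cases and rose in none. TAPBPL, a peptide editor related to tapasin, fell by 1.11, the chaperone gene CANX fell by 0.49 and the tapasin gene TAPBP fell by 0.41. Among 8 proteasome genes, 3 fell, near the share of all genes, and 1 rose. PSMB10, another immunoproteasome subunit, fell by 1.32, and the activator subunits PSME2 and PSME1 fell by 0.56 and by 0.34. PSMB8, the remaining immunoproteasome subunit, was at 63.3, 62.6 and 57.0 CPM in NC and at 60.2, 55.8 and 54.0 CPM in siMEOX2 (log2 fold change -0.09 ± 0.07 SE, edgeR adjusted p = 0.249). Of 14 class II genes, 5 passed the filter: CTSS and LGMN fell, HLA-DMB (log2 fold change 1.17) and CTSL (0.66) rose, and HLA-DMA did not pass the test. HLA-DMB rested on 5 to 9 reads a library in NC and 11 to 24 in siMEOX2.

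NLRC5 and CIITA moved in opposite directions in the knockdown. NLRC5 was at 178, 180 and 180 CPM in NC and at 111, 107 and 110 CPM in siMEOX2, 1.63-fold lower (log2 fold change -0.70 ± 0.05 SE, edgeR adjusted p = 2.53e-10). CIITA was at 4.85, 4.51 and 5.71 CPM in NC and at 7.36, 7.52 and 6.58 CPM in siMEOX2, 1.44-fold higher (log2 fold change 0.52 ± 0.15 SE, edgeR adjusted p = 0.00607). For both genes the groups did not overlap. Of the 11 regulators 6 fell and 3 rose, against 28.5% and 27.4% of all genes, shares that also apply to the counts below. The NF-Y subunit gene NFYC fell by 0.85 and RFXAP, part of the RFX complex, rose (0.85). IRF1, which relays interferon signals, rose (0.18). Of the 10 interferon sensing genes tested, 6 fell and 3 rose. The feedback inhibitor SOCS1 fell by 1.41 and the kinase gene JAK2 fell by 0.41, while SOCS3 (0.89), IFNGR1 (0.35) and IFNGR2 (0.23), the last pair encoding the interferon gamma receptor, rose. Of 4 NF-kB subunit genes 3 rose, namely RELB (0.56), NFKB1 (0.34) and NFKB2 (0.32), and none fell. Of the glioma line markers, 4 of 4 tested fell, with VIM lower by 2.02-fold, and their summed level was 1114 to 1126 CPM in NC and 520.8 to 551.9 CPM in siMEOX2. Both endothelial markers (PECAM1, CDH5) fell, from a sum of 33.8 to 38.0 CPM to 4.01 to 6.38 CPM. Of the 2 immune markers tested, CD14 fell by 1.65 on the log2 scale, with 16 to 25 reads a library in NC and 5 to 9 in siMEOX2, and ITGAM did not pass the test. The part of these markers in the results was not tested.

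**Figure D5:**
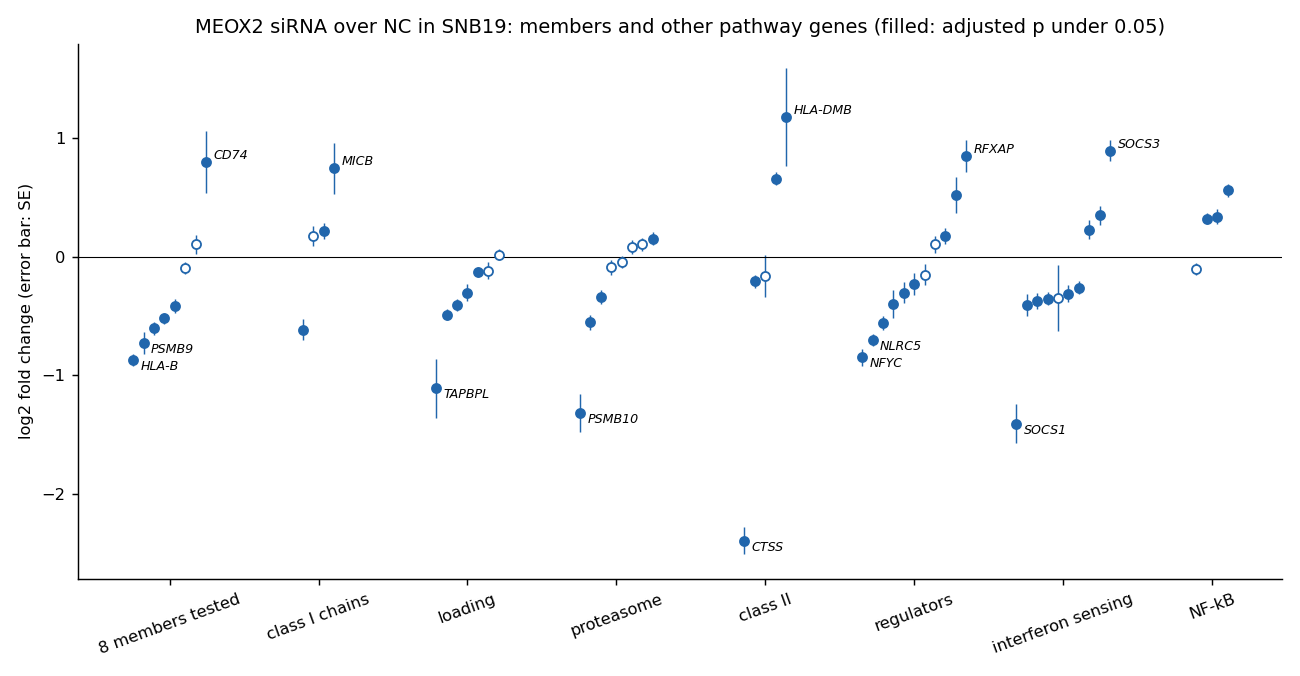
Log2 fold changes with standard errors in the SNB19 knockdown for the 8 members tested and for 7 lists of other pathway genes, with 1 point a gene and filled points for those that passed the test. Loading genes lie at or below 0 in most cases, CTSS is the lowest point at -2.40, and the NF-kB subunits lie mostly above 0.

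In U87, 6 members were lower in both OE libraries than in both EV libraries, and no gene of the transcriptome passed the test. These were HLA-B, HLA-C, B2M, PSMB9, CD74 and HLA-DRA, of 9 tested, while the groups of HLA-E, TAP1 and TAP2 overlapped. Among all 14180 genes tested, 28.2% were lower and 29.9% higher without overlap. The edgeR test called 0% of genes (0 of 14180, with 2643 at an unadjusted p under 0.05), and DESeq2 called 991 (6.99%), among them CD74, PSMB9 and HLA-DRA. In simulated data with this spread, the edgeR fit recovered 1% of absolute log2 fold changes of 1. A missing call in U87 therefore does not show that a gene was unchanged. Over genes, the log2 ratio between both EV libraries had an SD of 1.23, against 0.508 between the OE libraries. Calls from fits with a single EV library, here and below, leave that EV difference out. With a single EV library the lone sample is assumed to vary like the OE libraries. In that fit 7 members were called without the first EV library (47.4% of genes), with HLA-E higher and the 6 above lower, and 7 without the second (71.2% of genes), with TAP1 higher and the same 6 lower. The joint fit of all 10 libraries, which shares its spread with the less variable SNB19 libraries, called the same 6 (26.2% of genes). CD74, PSMB9 and HLA-DRA were the 3 called with no count filter (6.79% of genes) and by the fold rule (15.2%). The same 3 were called with crossed replicate numbers as a block (8.12%), a pairing added after the data were seen and so no separate check. CD74 and PSMB9 were the 2 called with the replicate numbers as a block (3.3%). The median log2 fold change of the 9 members was -0.73, against -0.06 over all genes. Among genes ranked by length, percentiles were 7.33 for HLA-DRA, 21.2 for HLA-C, 27.8 for HLA-E, 29 for HLA-B, 29.3 for PSMB9 and 30.8 for CD74. They were 51.7 for TAP1, 65.3 for B2M and 67.9 for TAP2. Short genes were mostly higher in the first EV library than in the second, and the part of length in this median was not tested.

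CD74 had the largest difference of the 9 members. It was at 58.8 and 39.6 CPM in EV and at 5.55 and 4.39 CPM in OE, 9.98-fold lower (log2 fold change -3.32 ± 0.37 SE, edgeR adjusted p = 0.123). The log2 fold change was -3.01 without the first EV library and -3.55 without the second. HLA-DRA had 94 and 60 reads in EV and 18 in each OE library, a log2 fold change of -2.21 ± 0.50 (SE, edgeR adjusted p = 0.177), with -1.69 and -2.57 when the first or second EV library was left out. PSMB9 was at 67.1 and 25.6 CPM in EV and at 8.78 and 11.01 CPM in OE. Its log2 fold change was -2.24 ± 0.56 (SE, edgeR adjusted p = 0.189), with -1.37 without the first EV library and -2.74 without the second.

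The class I heavy and light chains also moved with the EV library used. HLA-B was at 732 and 256 CPM in EV and at 187 and 211 CPM in OE. Its log2 fold change was -1.33 ± 0.58 (SE, edgeR adjusted p = 0.302), but -0.37 without the first EV library and -1.86 without the second. HLA-C was at 217 and 140 CPM in EV and at 101 and 116 CPM in OE (log2 fold change -0.73 ± 0.34 SE, edgeR adjusted p = 0.316), with -0.37 without the first EV library and -0.98 without the second. B2M was at 1226 and 740 CPM in EV and at 588 and 645 CPM in OE (log2 fold change -0.69 ± 0.39 SE, edgeR adjusted p = 0.371), with -0.27 without the first EV library and -0.97 without the second. Both OE libraries lay below both EV libraries for the 3 genes, and the EV libraries differed from each other by 1.55-fold to 2.86-fold.

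HLA-E was at 270 and 156 CPM in EV and at 252 and 268 CPM in OE, so that OE lay within the EV range. Its log2 fold change was 0.27 ± 0.37 (SE, edgeR adjusted p = 0.685), 0.73 and called without the first EV library, and -0.04 and not called without the second. TAP1 was at 15.6 and 42.2 CPM in EV and at 39.0 and 37.9 CPM in OE, and its log2 fold change of 0.40 ± 0.52 (SE) became -0.14 without the first EV library and 1.32 without the second. TAP2 was at 41.5 and 34.1 CPM in EV and at 32.0 and 37.7 CPM in OE (log2 fold change -0.13 ± 0.27 SE), with 0.03 without the first EV library and -0.23 without the second, neither called. The first EV library was the lowest of the 4 U87 libraries for TAP1 and the highest for the other 8 members.

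Beyond the members, CTSS was at 36.7 and 36.6 CPM in EV and at 156 and 158 CPM in OE (log2 fold change 2.08 ± 0.26 SE, edgeR adjusted p = 0.123). NLRC5 was at 60.4 and 79.0 CPM in EV and at 27.1 and 26.8 CPM in OE, and CIITA at 14.9 and 24.7 CPM in EV and at 6.46 and 6.69 CPM in OE. For these 3 genes EV and OE did not overlap, and their log2 fold changes without the first and the second EV library were 2.09 and 2.11 for CTSS, -1.56 and -1.15 for NLRC5 and -1.91 and -1.16 for CIITA. The loading gene TAPBP was at 271 and 244 CPM in EV and at 130 and 124 CPM in OE, and PSMB8 at 154 and 49.95 CPM in EV and at 29.7 and 32.9 CPM in OE. With the EV libraries left out in the same order, the values were -0.94 and -1.07 for TAPBP and -0.68 and -2.28 for PSMB8. The glioma line markers summed to 5972 and 2106 CPM in EV and to 1352 and 1344 CPM in OE. The endothelial markers summed to 7.58 and 5.98 CPM in EV and to 2.24 and 1.30 CPM in OE, with PECAM1 lower in both OE libraries (log2 fold change -1.97 ± 0.50 SE, edgeR adjusted p = 0.193). The part of these markers in the results was not tested. None of the genes in this paragraph passed the test with both EV libraries, and IRF1, IFNGR1 and IFNGR2 had log2 fold changes of -0.62, 0.06 and -0.62 with edgeR adjusted p of 0.396, 0.891 and 0.311. Without the first EV library these were -0.13, 0.05 and -0.42, and without the second -0.94, 0.12 and -0.76.

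Control SNB19 and control U87 cells started from different levels. Cell line, delivery method, siRNA against lentivirus, puromycin selection and time since delivery cannot be told apart in this comparison. Of the 9 members, 6 were lower in NC than in EV and 1 was higher, against 28.8% and 28.1% of the 17312 genes tested (56.9% called in all), and groups did not overlap for 6 members with lower and 2 with higher NC values (30.4% and 35.7% of genes). CD74 was 34.8-fold lower in NC (log2 fold change -5.12 ± 0.25 SE, edgeR adjusted p = 4.56e-07). HLA-DRA had 3 reads over 3 NC libraries and 154 over 2 EV libraries, a ratio of 101 after scaling (95% exact binomial interval 33.8 to 493, counting error only). HLA-B was 2.93-fold, PSMB9 2.10-fold, HLA-E 1.55-fold and TAP2 1.43-fold lower in NC. TAP1 was 2.84-fold higher in NC (log2 fold change 1.50 ± 0.33 SE, edgeR adjusted p = 0.00391). HLA-C (log2 fold change 0.12 ± 0.18 SE) and B2M (0.36 ± 0.20 SE) did not pass the test. Without the first EV library 8 members and 63.4% of genes were called. The log2 fold changes were then -4.81 for CD74, -0.61 for HLA-B, -0.19 for HLA-E, -0.38 for TAP2 and 0.96 for TAP1, while PSMB9 (-0.22) was no longer called and HLA-C (0.46) and B2M (0.77) were called as higher in NC. Without the second, 8 members and 73.7% of genes were called. The log2 fold changes were then -5.40 for CD74, -2.15 for HLA-B, -1.64 for PSMB9, -1.0 for HLA-E, -0.68 for TAP2, 2.37 for TAP1, -0.19 for HLA-C, called as lower in NC, and 0.02 for B2M, not called. HLA-DRA was called as lower in NC in both fits. From the control libraries alone 4 members (CD74, HLA-B, HLA-DRA and TAP1) and 41.4% of genes were called.

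Most other class II genes differed in the same direction as CD74. Of 11 tested, 9 were lower in NC and LGMN was higher, against 28.8% lower and 28.1% higher of all genes tested. These shares also apply to the list counts below. The remaining gene, HLA-DOB, named here after its values were seen, had 19 reads in NC and 2 in EV and missed the threshold (log2 fold change 2.15 ± 0.88 SE, edgeR adjusted p = 0.0627). Of the 9, HLA-DRB1, HLA-DRB5, HLA-DPA1, HLA-DPB1 and HLA-DQB1 were below the count filter in the fit of SNB19 alone. They entered this test through the U87 libraries, so the filter favoured lower values in NC. The same applies to HLA-DRA and HLA-F. HLA-DRB1 had 0 reads in NC and 2417 in EV, at least 1.58e+03-fold lower against a floor of 3 reads over the group, and HLA-DRB5 and HLA-DQB1, also at 0 reads in NC, were at least 360-fold and at least 46.4-fold lower. HLA-DRB1 and HLA-DRB5 are near copies, so reads may be split between them. CIITA was 3.94-fold lower in NC (edgeR adjusted p = 7.73e-05) and NLRC5 was 2.57-fold higher (edgeR adjusted p = 3.84e-05). Among class I chains 3 of 5 were lower and none higher: HLA-F had 1 read in NC and 119 in EV (ratio 233, 95% exact binomial interval 41.1 to 9.29e+03), MICB differed by -2.88 and MR1 by -0.40 on the log2 scale. Loading genes were lower in 3 of 7 cases (TAPBPL -2.04, CALR -1.64, PDIA3 -0.68), and so were proteasome genes in 3 of 8 (PSMB7 -1.89, PSME2 -1.22, PSME1 -0.91). The proteasome count is near the share of all genes that were lower. The proteasome values rested on the first EV library: without it PSMB7 was at -0.69, and PSME2 (-0.14) and PSME1 (-0.04) were no longer called. Without the second they were -2.57, -1.86 and -1.48, and PDIA3 was at -0.37 without the first and -0.98 without the second. Of 11 regulators 3 were higher and 3 lower, with log2 fold changes of -1.98 for RFXANK and 1.44 for RFX5. These became -0.74 and 0.79 without the first EV library and -2.67 and 2.59 without the second. JAK2 (1.69), IRF9 (1.10) and NFKB2 (1.68) were higher in NC, and SOCS1 (-0.90), RELA (-0.34), CTSS (-0.44) and IFNGR2 (-0.54) were lower. Without the first EV library JAK2 was at 1.05, SOCS1 at -0.52, IFNGR2 at -0.35 and IRF9 at 0.66, no longer called, and without the second they were at 2.87, -1.24, -0.74 and 1.79. PECAM1 (2.26), CDH5 (4.27), CD14 (1.52) and ITGAM (8.26), markers of other cell types, were higher in NC. ITGAM had 124 reads in NC and 0 in EV, CDH5 had 195 and 5, CD14 had 62 and 11, and IRF9 had 92 and 22. ITGAM, CDH5, CD14 and IRF9 were below the count filter in the fit of U87 alone. They entered this test through the SNB19 libraries, so the filter favoured higher values in NC. Of the glioma line markers, VIM (-2.02) and CD44 (-1.56) were lower in NC, NES (1.40) was higher and GFAP did not pass the test. VIM ranged from 1305 to 5106 CPM in EV. The part of these markers in the differences was not tested.

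The knockdown and the overexpression are opposite changes of MEOX2 in different lines, and their effects were compared in a joint model of all 10 libraries. The contrast of the siMEOX2 effect minus the OE effect called CD74 alone among the 9 members (log2 difference 4.09 ± 0.35 SE, edgeR adjusted p = 0.000333), against 15.7% of the 17312 genes tested, 8.36% in the higher and 7.33% in the lower direction. With DESeq2 (23.4% of genes) and without a count filter (9.97%) PSMB9 was called as well. Without the first EV library 7 members were called (35.5% of genes) and without the second 6 (54.6%), and between these fits the difference turned sign for HLA-B (-0.56 and 0.97), HLA-C (-0.29 and 0.36) and B2M (-0.31 and 0.43). CD74 was higher in siMEOX2 than in NC and lower in OE than in EV. In the same contrast CTSS differed by -4.51, HLA-DMB by 3.69, HLA-DMA by 3.17 and CIITA by 2.10. The HLA-DMB value rested on few reads, with 33 over both EV libraries and 6 over both OE libraries. The remaining genes named by rule were MICA (1.01), MR1 (-0.68), TAPBP (0.60), PSME3 (-0.71), IRF2 (-1.69), NFYC (-1.53) and IFNGR2 (0.82). MICA was at 0.57 without the first EV library and 1.30 without the second. In that order CD74 was at 3.74 and 4.33, PSMB9 at 0.57 and 1.99 and HLA-DMA at 2.21 and 3.72. HLA-DMB was at 3.16 and 4.05, CIITA at 2.37 and 1.66, IRF2 at -1.30 and -2.35 and IFNGR2 at 0.58 and 0.97.

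A second contrast ordered both effects by MEOX2 level, taking NC minus siMEOX2 and subtracting OE minus EV, and was added after the values were seen. It asks whether more MEOX2 went with the same change in both lines, so a call means that the 2 changes differed in direction or in size. It called 24.4% of genes and 5 of the 9 members, all 5 in the higher direction, against 14.2% of all genes higher and 10.2% lower: HLA-B (log2 difference 2.20), HLA-C (1.34), B2M (1.21), PSMB9 (2.97) and CD74 (2.52). HLA-B, HLA-C, B2M and PSMB9 were lower in siMEOX2 than in NC and also lower in OE than in EV. CD74 was lower with more MEOX2 in both lines, and its changes differed in size (0.80 in siMEOX2 over NC and -3.32 in OE over EV). These 5 were also called when either EV library was left out, with HLA-B at 1.20 without the first (43% of genes called) and 2.72 without the second (56.8%). The same EV libraries enter this contrast and the U87 comparison, so it does not add independent values.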

How the data were processed

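Gene counts and FPKM of 10 libraries were deposited by the authors in a single table of 34567 genes. Per the labels, poly-A RNA was made into libraries with a NEBNext Ultra kit, and sequenced as paired reads. The submitters' processing notes name GRCh38, HISAT2 (an aligner), HTSeq 0.11.2 (a read counter) and DESeq2 1.26.0. The annotation release and the strand setting are not given in the sources used here. Deposited counts are raw whole numbers, and the authors' FPKM values were used only to compare levels between genes. A depth of 12533775 to 16560324 reads per library sets the counting precision, and intervals and floors cover counting error only. Groups were taken from sample titles, because the treatment field of the U87 libraries numbers the gene differently in each library.

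Each line was fitted alone with edgeR 4.0.16 (R 4.3.3; TMM, filterByExpr, quasi-likelihood F test, Benjamini-Hochberg adjustment over all genes, threshold 0.05). The comparison of control lines and the differences between effects used all 10 libraries. DESeq2 1.42.0, other scaling, no filter, a replicate block, left-out libraries and the study's fold rule (unadjusted p under 0.05, absolute log2 fold change over 1) were alternatives, and the fits were tested on simulated data. With the spread of the libraries fitted, simulated absolute log2 fold changes of 1 were recovered in 100% of cases for the knockdown and 1% for U87. Recovery was 26% for the control lines and 4% for the difference between manipulations. Changes of 3 were recovered in 81.8% of cases for U87. CPM values were scaled with TMM over all libraries. The 9 members, the pathway lists and the tests were chosen with earlier results of these data known. All members and a set of 8 pathway genes are named, as are the 3 called genes with the largest change in each list and the 5 genes most like HLA-B. Some other genes of the lists are not reported here and were left out of the list counts. Replicate numbers did not pair the SNB19 libraries (correlations of deviations -0.0172, -0.0298 and 0.0665). No libraries were duplicates.

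In GENCODE 29 (GRCh38), not stated to be the release used by the authors, the members lie at chr6:31269491-31357188 (HLA-B), chr6:31268749-31272130 (HLA-C), chr6:30489467-30494205 (HLA-E), chr15:44711487-44718877 (B2M), chr6:32845209-32853978 (TAP1), chr6:32821833-32838780 (TAP2), chr6:32844136-32859585 (PSMB9), chr5:150401637-150412929 (CD74) and chr6:32439842-32445046 (HLA-DRA). Reads in exons shared with another gene are uncertain. On the same strand, AL669918.1 covers 32.3% of TAP2 exon bases, PSMB8-AS1 covers 5.66% of PSMB9, and HLA-B and HLA-C share 35 bases. The kit does not mark strand, so overlaps on the opposite strand are uncertain too. There AL671883.2 covers 17.8% of HLA-B, PSMB8-AS1 covers 9.49% of TAP1 and PSMB8 covers 4.52% of PSMB9.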

Additional observations from a re-analysis of the deposited data

Results flagged for a closer look

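The effects of the 2 manipulations were compared in a test of the difference itself. The siMEOX2 effect minus the OE effect called CD74 alone, while HLA-B, HLA-C, B2M and PSMB9 did not pass (edgeR adjusted p = 0.571, 0.833, 0.778 and 0.0619). For CD74, the siMEOX2 effect minus the OE effect was 4.09 on the log2 scale (SE 0.35, edgeR adjusted p = 0.000333), with 3 of 3 siMEOX2 libraries above NC and 2 of 2 OE libraries below EV. When effects were ordered by MEOX2 level, a contrast added after the values were seen, the log2 differences were 2.2 for HLA-B, 1.34 for HLA-C, 1.21 for B2M, 2.97 for PSMB9 and 2.52 for CD74. The edgeR adjusted p-values were 0.0106, 0.00508, 0.0138, 0.00228 and 0.00112, while HLA-E, TAP1, TAP2 and HLA-DRA did not pass. The line, the delivery method, puromycin selection and the direction of the MEOX2 change cannot be told apart in these differences. The outlying first EV library enters each of them, and the values without it were 1.2 for HLA-B, 0.938 for HLA-C, 0.752 for B2M, 2.06 for PSMB9 and 2.17 for CD74.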

How the results depend on the processing

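In the knockdown, the 8 members tested kept the sign of their log2 fold change under 13 of 13 alternatives. Of 8683 genes and 6 members called, 1669 and 0 were called by the study's fold rule and 2725 and 1 (HLA-C) in the joint fit of all 10 libraries, where one spread is estimated over all groups, and 7662 to 9102 genes and 5 to 6 members with a library left out. In U87, where 0 genes and 0 members were called, counts were 1863 genes and 3 members without a count filter, 991 and 3 with DESeq2, 2160 and 3 with the fold rule, 4538 and 6 in the joint fit, and 18 genes and 0 members with offsets for a gene-length trend (added after seeing the data). With a library left out the range was 38 to 10616 genes and 0 to 7 members. For the control lines, 4 members instead of 7 were called from the control libraries alone, and 8219 to 13539 genes and 5 to 8 members with a library left out. For the difference between manipulations, 2 members were called without a filter and 2 with DESeq2, and 1018 to 10034 genes and 1 to 7 members with a library left out. The contrast ordered by MEOX2 level called 7879 to 10435 genes and 6 to 7 members with an EV library left out. The cause was not tested for any of these counts.

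Between the fits without the first and without the second EV library, signs turned for 10 results called in at least 1 of them. These values were, in that order, 0.7284 and -0.03805 for HLA-E and -0.1401 and 1.318 for TAP1 in U87, and 0.4644 and -0.1886 for HLA-C, 0.281 and -1.361 for PSMB8 and 0.7302 and -0.1214 for IRF1 between the control lines. For the difference between manipulations they were -0.3126 and 0.4349 for B2M, -0.5647 and 0.9707 for HLA-B and -0.2946 and 0.3562 for HLA-C, and in the ordered contrast 0.52 and -0.915 for TAP1 and -0.6703 and 0.1206 for HLA-E.

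The replicate numbers are only names in these labels. A replicate block left 8601 genes called in the knockdown, 468 genes and 2 members in U87, and 698 genes in the difference. Deviations of same-numbered U87 libraries correlated at -0.266, and a crossed pairing, added after seeing the data, called 1152 genes and 3 members. Depth limits HLA-DRA in SNB19, where 0 to 3 reads a library were counted.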

Other observations

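The genes whose levels followed HLA-B most closely were sought over all 10 libraries, with log2 CPM centred on the mean of each line, among 14552 genes. The 5 highest Pearson correlations outside the lists were those of PHC2 (0.996), a Polycomb component, CAPG (0.995), an actin-capping protein, VAMP3 (0.993), a vesicle SNARE, KCNMA1 (0.993), a potassium channel, and NINJ1 (0.992), a membrane protein. Of all genes, 5.45% had a correlation over 0.9, and the libraries share line, depth and the outlying first EV library, so these values describe this set of libraries only. Among the members, B2M (0.988), HLA-C (0.976) and PSMB9 (0.935) followed HLA-B closely, while CD74 (0.498), TAP2 (0.387), HLA-E (0.29) and TAP1 (-0.478) did so less or not at all.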
